A study of Drosophila melanogaster with 4 samples.

Results

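The transcripts of 4 enzymes that make, interconvert or break down GABA and glutamate were followed in Drosophila melanogaster heads after feeding with vigabatrin (VGB). They were Gabat (CG7433), Gad1 (CG14994), Gs2 (CG1743) and Gdh (CG5320) and were picked out by name in the array's annotation. They are 4 of the 6793 genes named on the array through a single-gene probe, and were represented by 5 of its 13824 probes, a probe being the mean of 2 adjacent duplicate spots. Gad1 had 2 probes, and the other genes had 1 each. Relative to the rest of each array, no enzyme passed the test for a difference between VGB and normal food, and the sign of each mean about the array's median turned with the way the dye-swapped arrays are read. Gad1 and Gabat both lay low on replicate 1 and differed from each other by 0.24 at most on any array, whichever reading is taken.

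GABA is the main inhibitory transmitter of the fly brain and is made from glutamate by glutamate decarboxylase. It is broken down in mitochondria by GABA transaminase, whose product is oxidised to succinate, so that GABA carbon returns to the TCA cycle. Glutamate itself is formed or consumed by glutamate dehydrogenase and is turned into glutamine, mostly in glia, by glutamine synthetase. Vigabatrin, an antiepileptic drug, blocks the GABA transaminase protein irreversibly. The arrays measured transcripts, not enzyme activity or GABA.

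The VGB group was made up of unmated adult Oregon-R wild-type males, 10 to 11 days old, kept for 3 days on food with VGB at 24 mg per ml. The NF group was the same kind of male kept on normal food (NF) for the same time, and vials of both groups held 30 flies at 24 °C. RNA from pooled heads of a VGB set and an NF set was hybridised together on each of 4 two-colour arrays, which are 4 biological replicates with VGB in Cy5 on replicates 1 and 2 and in Cy3 on replicates 3 and 4. The pooled head holds brain, eye, fat body and muscle, so fewer cells of a type and less RNA per cell cannot be told apart.

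The direction of the deposited log ratios on the dye-swapped arrays could not be settled from the labels or the values. Under the dye reading, used as the main one, the values are Cy5 over Cy3, and replicates 3 and 4 are turned to give VGB over NF. Under the direct reading all 4 columns are already VGB over NF. Both readings take the arrays that were not dye-swapped as VGB over NF. The array titles, which read NF-VGB, do not settle this, and with the opposite direction every sign would turn. All log2 ratios below are VGB over NF after subtraction of the array's median, and a positive value means higher in VGB under the reading named.

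Between 2559 and 6460 of the 27648 spots had a value on an array, after the authors' spot filters. Only 591 probes (4.28%) had a value on all 4 arrays, and 1114 had one on at least 3 and were tested. The column medians before centring ran from 0.44 to 1.04. The second Gad1 probe had no value on any array. The other 4 probes, 1 for each enzyme, had a value at both spots on every array, 32 of 32 spot values. Of the single-gene probes, 4.13% had a value on all 4 arrays and 58.7% had none. Duplicate spots of the enzymes differed by 0.13 at the median and by 0.015 to 0.41 over the 16 probe and array values. The median difference over all pairs on an array was between 0.14 and 0.26. Those pairs include probes with a value on fewer arrays, so the sets are unlike. The eye transcripts trpl, chp and inaC had values on all 4 arrays. Of the neuron markers listed, nSyb alone had a probe, with values on 2 arrays, and 3 of 6 glial markers had a value, each on 1 array. Of the digestive markers no gene had a probe, and the 2 male reproductive genes with probes had no value.

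Gabat encodes the GABA transaminase that the drug inactivates. Its log2 ratios under the dye reading were -0.48 on replicate 1, 0.12 on replicate 2, -0.28 on replicate 3 and -0.24 on replicate 4. It was lower in VGB on 3 arrays and slightly higher on replicate 2, where its 2 spots stood at 0.23 and 0.00. The mean was -0.22 ± 0.25 (SD, n = 4; limma adjusted p = 0.89), which is 85.7% of the NF level with a 95% interval of 69.0% to 106%. It was -0.14 without replicate 1 (limma adjusted p = 0.98) and -0.34 without replicate 2 (limma adjusted p = 0.43). With the direct reading the mean was 0.04 ± 0.36 (SD, n = 4; limma adjusted p = 0.94), or 103% of NF with an interval of 82.5% to 128%. In that reading Gabat was higher on 3 arrays and lower on replicate 1 alone.

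Gad1 encodes glutamate decarboxylase, the enzyme that makes GABA. Under the dye reading its log2 ratios were -0.73, 0.25, -0.24 and -0.38 on replicates 1 to 4. Like Gabat it was lowest on replicate 1 and above 0 on replicate 2 only. The mean was -0.27 ± 0.41 (SD, n = 4; limma adjusted p = 0.84), which is 82.7% of NF with an interval of 65.0% to 105%. This mean was -0.12 without replicate 1 (limma adjusted p = 0.99), -0.45 without replicate 2 (limma adjusted p = 0.29) and -0.12 with each printed block of spots centred on its own median (limma adjusted p = 0.99). The direct reading gave 0.04 ± 0.51 (SD, n = 4; limma adjusted p = 0.96), or 102% of NF with an interval of 79.5% to 132%. That direct mean joined 3 arrays between 0.24 and 0.38 with the low value of replicate 1, and without replicate 1 it was 0.29 (limma adjusted p = 0.33).

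Replicate 1 carried VGB in Cy5, so its sign is the same under both readings. There 3.54% of the 2822 probes with a value were lower than Gad1, and 8.93% were lower than Gabat. Among the probes measured on all 4 arrays, a smaller set, Gad1 was lower than 589 others and higher than 1, and Gabat was lower than 576 and higher than 14. The 2 Gad1 spots agreed, at -0.69 and -0.77, and so did the 2 Gabat spots, at -0.50 and -0.47. Over all pairs replicate 1 had the poorest agreement of duplicates (r = 0.23 across 2809 pairs, which are not independent, against 0.64 to 0.82 on the other arrays). On the other 3 arrays Gad1 stood above 65.0% to 74.5% of the probes measured on all 4 arrays in Cy5 over Cy3, and Gabat above 48.1% to 75.8%.

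Markers of the head fat body, a tissue of lipid storage and metabolism, were also below 0 under the dye reading. Of 5 genes listed, 4 had a value and 3 had values on all 4 arrays, through 4 probes. These probes were below 0 on every array in that reading, as were 11.5% of all probes on 4 arrays, and their median was -0.55. The 2 probes of apolpp, the lipophorin precursor gene, stood at -0.61 ± 0.36 and -0.64 ± 0.39, FASN1, a fatty acid synthase gene, at -0.48 ± 0.38 and Desat1, a fatty acid desaturase gene, at -0.45 ± 0.24 (SD, n = 4 each). None was called by limma over the 1114 probes (adjusted p from 0.17 to 0.28, at unadjusted p of 0.0012 to 0.0088). With dye as a term in the model all 4 probes were called lower (limma adjusted p from 0.0087 to 0.037). That model called 4.4% of its 591 probes lower, and its p-values were adjusted over those 591 only. On replicate 2, where Gad1 and Gabat were above 0, the same probes ran from -1.08 to -0.12. With the direct reading their median was 0.07, with 3 probes above 0 and 1 below. The eye markers on all 4 arrays had a median of -0.0041 under the dye reading, with trpl at -0.18, chp at -0.0041 and inaC at 0.07. The eye gene trp had values on replicates 3 and 4 only, -0.51 and -0.43. The muscle marker Act88F stood at -0.01. With the direct reading the eye median was 0.17, with trpl at 0.39, chp at 0.17 and inaC at -0.04, and Act88F stood at 0.24. The part of the fat body in the values of the enzymes was not tested.

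**Figure D1:**
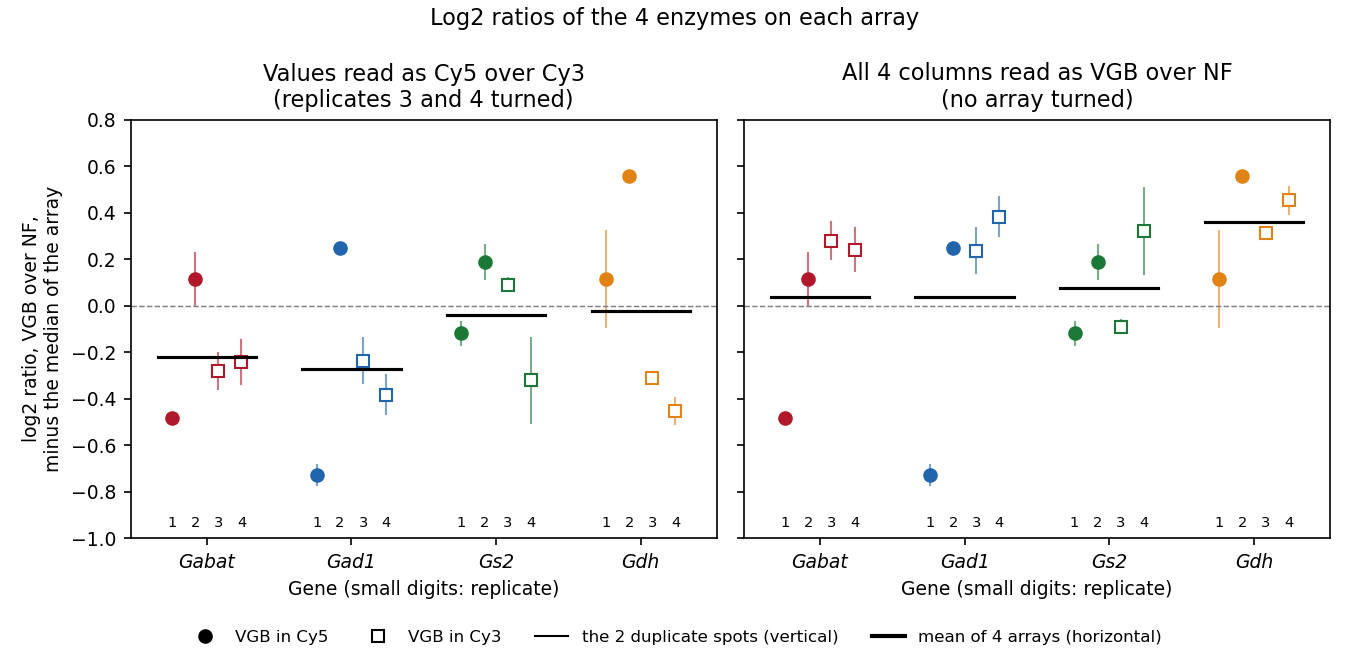
Log2 ratio of VGB over NF minus the array's median (vertical axis) for the 4 enzymes on replicates 1 to 4, under the dye reading (left) and the direct reading (right); points are probe means, vertical lines join the 2 duplicate spots and horizontal bars are means of 4 arrays. Gad1 (-0.73) and Gabat (-0.48) are low on replicate 1 in both panels, and Gdh lies above 0 on all 4 arrays only in the right panel.

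Gs2 encodes the cytosolic glutamine synthetase, which turns glutamate into glutamine. Its log2 ratios under the dye reading were -0.12, 0.19, 0.09 and -0.32 on replicates 1 to 4. The arrays were split, 2 above and 2 below 0, under both readings. The mean was -0.04 ± 0.23 (SD, n = 4; limma adjusted p = 0.997), or 97.2% of NF with an interval of 78.5% to 120%. The direct reading gave 0.08 ± 0.21 (SD, n = 4; limma adjusted p = 0.83), or 105% with an interval of 86.7% to 128%. On replicate 4, the lowest array under the dye reading, the 2 spots stood at -0.14 and -0.51.

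Gdh encodes the mitochondrial glutamate dehydrogenase, which links glutamate to the TCA cycle. Under the dye reading it stood at 0.11 and 0.56 on replicates 1 and 2 and at -0.31 and -0.45 on replicates 3 and 4. The 2 arrays with VGB in Cy5 were thus above 0 and the 2 with VGB in Cy3 below it. The mean was -0.02 ± 0.46 (SD, n = 4; limma adjusted p = 0.997), or 98.4% of NF with an interval of 76.5% to 126%. Read directly, Gdh was higher in VGB on 4 of 4 arrays, with a mean of 0.36 ± 0.19 (SD, n = 4), or 128% of NF with an interval of 106% to 155%. It did not pass (limma adjusted p = 0.22, with 0.13 to 0.50 when single arrays were left out). Of the 591 probes on all 4 arrays, 18.3% were higher on every array under that reading. On replicate 1 the 2 Gdh spots differed in sign, at 0.32 and -0.09.

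Of the 4 enzymes, 0 were called by limma under either reading. Over all 1114 probes tested, 0.0898% were called higher and 0.269% lower under the dye reading, and 0% either way under the direct reading. At an unadjusted p under 0.05, 0 of the enzymes and 8.44% of all probes passed under the dye reading, and 1 enzyme (Gdh) and 14% of all probes under the direct reading. An exact two-sided sign-flip permutation test over the 4 arrays cannot give a p below 0.125. It gave 0.25 for Gabat, 0.375 for Gad1, 0.75 for Gs2 and 1 for Gdh under the dye reading. For the direct reading this exact test gave 0.875, 1, 0.625 and 0.125 in the same order of genes.

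Part of the array pattern was common to most probes. On replicate 2 the enzymes were all above 0, as were 62.1% of the probes on all 4 arrays. On replicate 4 the enzymes were all below 0 under the dye reading, and 78.0% of those probes gave the same sign. The median of those probes was -0.25 on replicate 4. Measured from the median of these 591 probes on each array, the means under the dye reading were -0.22 for Gad1, -0.17 for Gabat, 0.01 for Gs2 and 0.03 for Gdh. The SD of Gs2 over the arrays was then 0.12, and Gabat stood within 0.03 of these medians on replicates 2 and 4. The same means under the direct reading were -0.06, -0.05, -0.02 and 0.27 in the same order, and Gdh was above the median on 4 of 4 arrays. Gad1 and Gabat were thus below 0 and Gdh above 0 under both readings with this centring, and Gs2 alone turned. The sign of a mean therefore rested on the centring as well as on the reading.

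**Figure D2:**
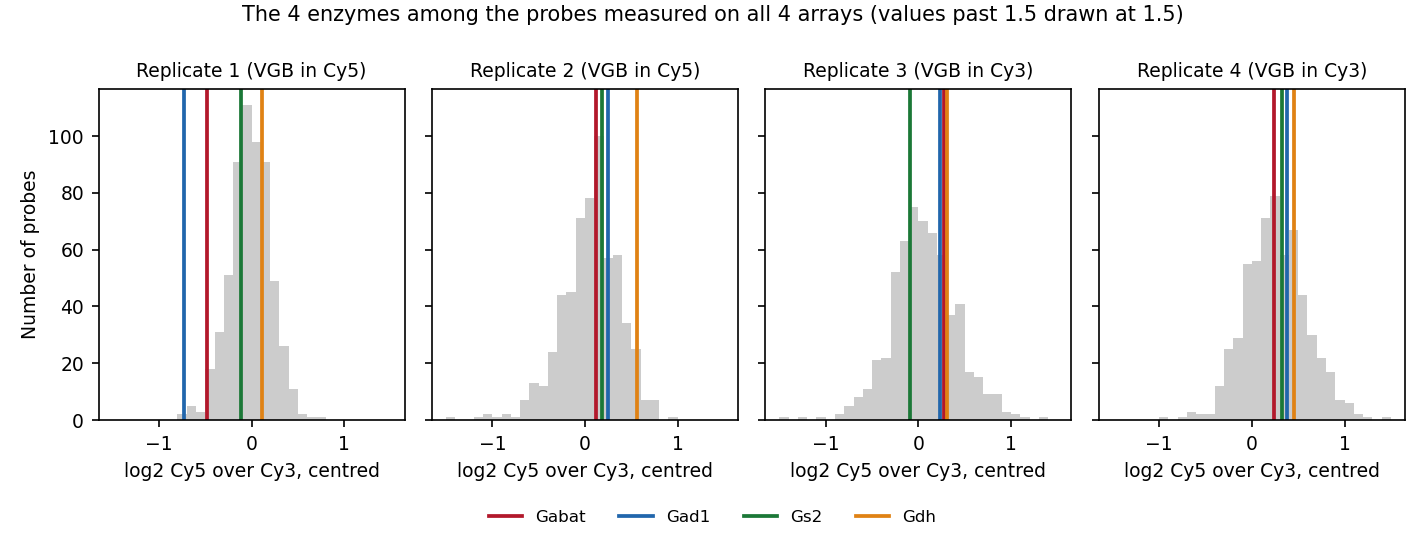
Histograms of log2 Cy5 over Cy3 minus the array's median (horizontal axis) for the 591 probes on all 4 arrays, with the number of probes on the vertical axis and the 4 enzymes as coloured lines. Gad1 and Gabat are in the lower tail on replicate 1, Gdh is in the upper tail on replicate 2, and on replicates 3 and 4 the 4 lines lie within the body of the distribution.

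A model with treatment and dye in 1 fit was run on the probes measured on all 4 arrays. With values read as Cy5 over Cy3, its treatment terms equal the means of the dye reading, and its dye terms equal those of the direct reading. The treatment terms had limma adjusted p of 0.53 for Gabat, 0.43 for Gad1, 0.96 for Gs2 and 0.97 for Gdh. The dye term of Gdh was 0.36 toward Cy5 (limma adjusted p = 0.082), and it exceeded that of 91.2% of the probes. The dye terms of the other enzymes were 0.04, 0.04 and 0.08 for Gabat, Gad1 and Gs2. Over all probes in this model the treatment term was called higher for 0.169% and lower for 4.4%, and the dye term was called toward Cy5 for 6.43% and toward Cy3 for 0.508%, none of them an enzyme. If the columns are read directly, these dye terms are the treatment terms, higher and lower in VGB, with dye in the fit. For Gdh a dye effect and a treatment effect cannot be told apart without the direction of the columns.

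The likeness of the enzymes to each other does not depend on the reading. The root mean square difference between log2 ratios of 2 probes over the 4 arrays is unchanged when an array's sign is turned or its median is moved. From Gad1, the nearest of 311 other single-gene probes measured on all 4 arrays was Gabat, at 0.16. The next nearest were ringer, a tubulin-binding protein gene (0.20), and Oda, the ornithine decarboxylase antizyme gene (0.24), against a median of 0.47 over those probes. From Gabat, the nearest were ringer (0.11), Gad1 (0.16) and CG4572 (0.17), against a median of 0.37. With 1 array left out, Gabat ranked 1 to 13 from Gad1 and Gad1 ranked 4 to 13 from Gabat, with the rank of 13 in both cases when replicate 1 was left out. With block centring Gabat ranked 4 from Gad1, at 0.20, but Gad1 ranked 15 from Gabat, behind Gs2, which ranked 2 at 0.14. From Gabat with array centring, Gad1 also ranked 9 without replicate 2 and 10 without replicate 3. Without replicate 1 the difference between Gabat and Gad1 was itself smaller, at 0.12, though the ranks were lower. The ranks of Gabat and Gad1 thus depended on the arrays kept and on the centring.

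Gs2 and Gdh were each closer to other genes than to the GABA enzymes with array centring. From Gs2 the nearest probes were CG3662 (0.055), Lamp1, a lysosomal membrane protein gene (0.056), and CG13928 (0.057), while Gabat ranked 151, Gdh 202 and Gad1 235. With block centring Gabat ranked 14 from Gs2, and without replicate 1 Gad1 ranked 72. From Gdh the nearest were mRpS24, a mitochondrial ribosomal protein gene (0.057), eEF1alpha2, a translation elongation factor gene (0.070), and Vha44, a proton pump subunit gene (0.085). Gs2 ranked 83 from Gdh, Gabat 139 and Gad1 186. Without replicate 1 Gad1 ranked 27 from Gdh and Gabat 61. These distances describe 4 arrays and carry no test.

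**Figure D3:**
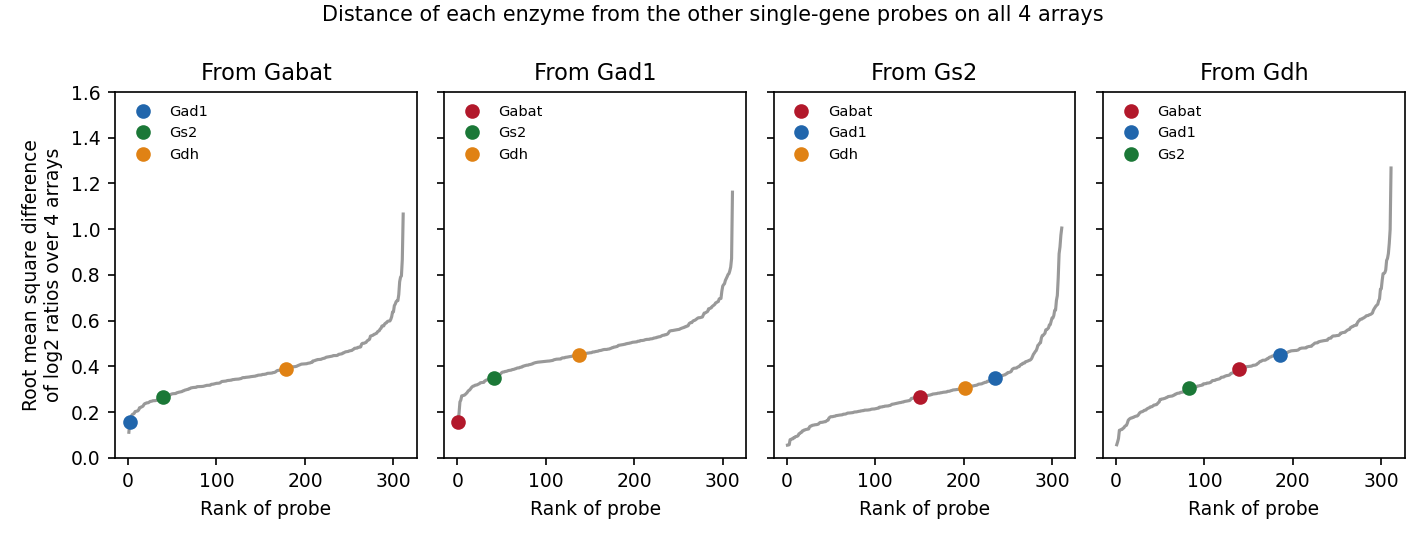
Root mean square difference of log2 ratios over 4 arrays (vertical axis) from each enzyme to the 311 other single-gene probes, ordered by rank (horizontal axis, grey line), with the other enzymes as coloured points. Gabat and Gad1 lie at the low end of each other's curve at 0.16, and Gs2 and Gdh lie further along the curves of the other enzymes.

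Differences between enzymes within an array are also free of the array's median, and 6 pairs were compared. Gabat minus Gad1 was 0.24, -0.13, -0.04 and 0.14 on replicates 1 to 4 under the dye reading, with a mean of 0.05 ± 0.17 (SD, n = 4). These values lie on both sides of 0. Gad1 minus Gdh was -0.84, -0.31, 0.08 and 0.07, with a mean of -0.25 ± 0.43 (SD, n = 4). Gabat minus Gdh was -0.60, -0.44, 0.03 and 0.21, with a mean of -0.20 ± 0.38 (SD, n = 4). Both GABA enzymes thus lay below Gdh on the arrays with VGB in Cy5 and slightly above it on the other 2. With the direct reading Gabat, Gad1 and Gs2 were each below Gdh on 4 of 4 arrays, by means of -0.32 ± 0.25, -0.32 ± 0.36 and -0.28 ± 0.13 (SD, n = 4 each). The exact sign-flip permutation p was 0.125 for each of these, the smallest that 4 arrays allow, and 0.25 after Benjamini-Hochberg adjustment over the 6 pairs. These differences share the Gdh values and are not separate results. Under that reading Gdh stood above 71.6% to 95.6% of the 591 probes on each array, so lying below it is not particular to the enzymes.

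The surrounding pathway was covered thinly. Of 59 listed genes of GABA and glutamate metabolism, transport and reception, 34 had a single-gene probe, 19 had a value on any array and 10 had values on at least 3, the enzymes included. Of these 10, 0 were called by limma in either direction under either reading (smallest limma adjusted p = 0.84 under the dye reading and 0.22 under the direct reading). At an unadjusted p under 0.05 there were 0 under the dye reading, where 8.44% of all probes passed, and 2, Gdh and GluClalpha, under the direct reading, where 14% did. Under the dye reading 7 lay below 0, as did 61.0% of all tested probes, with a median of -0.07 against -0.04 over those probes. With the direct reading 1 lay below 0, against 36.0% of all tested probes, with a median of 0.06 against 0.07 over those probes.

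Beside Gad1 and Gabat in GABA turnover, CG5618, a predicted decarboxylase gene, had 1 value, 0.08 on replicate 1. Ssadh, whose enzyme takes up the product of GABA transaminase, had a probe with no value. The genes of GABA transport and reception gave no value at all, with 3 of 8 on the array (Gat, Lcch3 and GABA-B-R3).

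Among glutamate enzymes, Gs1, the mitochondrial glutamine synthetase, had values on 2 arrays, -0.45 on replicate 2 and -0.19 on replicate 4 under the dye reading. CG1640, an alanine aminotransferase gene, had -0.10 ± 0.15 (SD, n = 4). The proline branch had 3 genes. P5CS, which makes proline's precursor from glutamate, had -0.17 ± 0.47 (SD, n = 4), with -0.83 on replicate 4 and values between -0.13 and 0.24 on the others. P5CDh1, which returns that precursor to glutamate, had -0.20 ± 0.09 (SD, n = 4; limma adjusted p = 0.91) and lay between -0.28 and -0.07, below 0 on every array under the dye reading. Of the 9 listed genes on all 4 arrays it alone was lower on every array under that reading. That is close to the share of all such probes that were lower on every array, 11.5%. The proline dehydrogenase gene slgA had 0.15 ± 0.12 (SD, n = 3). Read directly, CG1640, P5CS, P5CDh1 and slgA stood at 0.03, 0.31, -0.05 and 0.09. Gclm, a glutathione synthesis gene, had 1 value, -0.48 on replicate 2.

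SdhB, a subunit of succinate dehydrogenase, where GABA carbon rejoins the TCA cycle, had 0.02 ± 0.46 (SD, n = 4) and ran from -0.54 on replicate 4 to 0.52 on replicate 3. GluClalpha, a glutamate-gated chloride channel gene, was the only transport or receptor gene on at least 3 arrays. It stood at 0.73 and 0.40 on replicates 1 and 2 and at -0.03 and -0.10 on replicates 3 and 4 under the dye reading. Its mean was 0.25 ± 0.39 (SD, n = 4; limma adjusted p = 0.89), and 0.31 ± 0.32 (SD, n = 4; limma adjusted p = 0.33) under the direct reading.

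**Figure D4:**
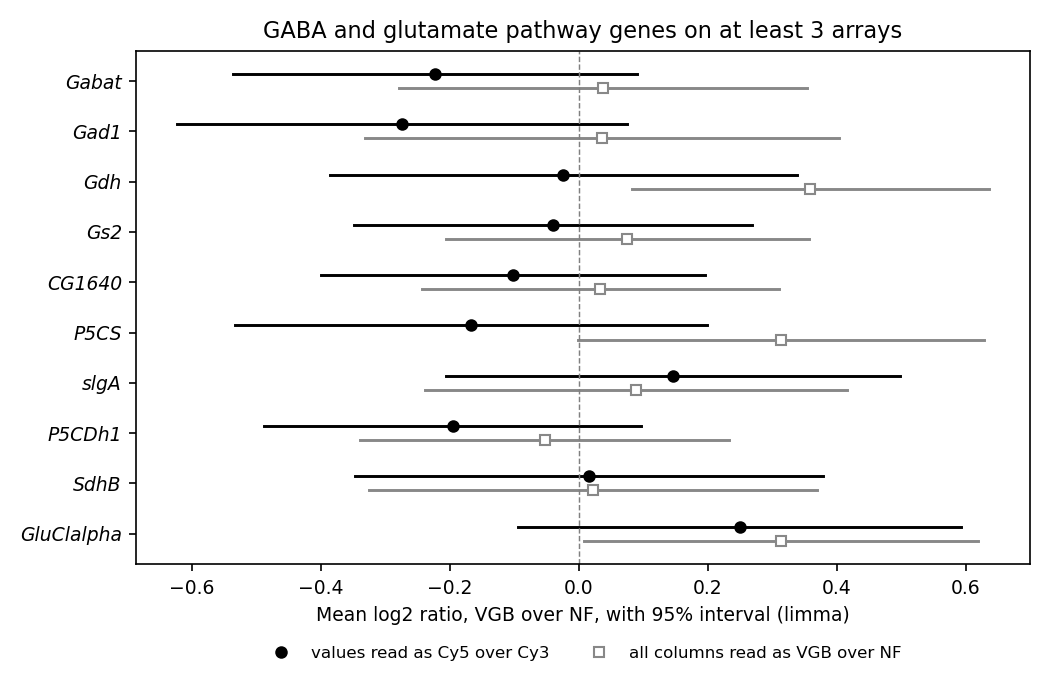
Mean log2 ratio of VGB over NF (horizontal axis) with limma's 95% interval for the 10 listed pathway genes on at least 3 arrays, under the dye reading (filled circles) and the direct reading (open squares). Every interval under the dye reading covers 0, and under the direct reading those of Gdh and GluClalpha do not, though neither passed after adjustment over all probes.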

How the data were processed

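Per the series' design text, the authors quantified the slides with GenePix Pro 6.0 and normalized the dye ratios in Acuity 4.0. They filtered spots on raw intensity (minimum 100), saturated pixels (under 3%), regression R2 (0.6 or more) and SNR (3 or more). The deposited values are log ratios, taken as log2 because they run below 0, with base, centring and the direction on dye-swapped arrays not given in the sources used here. Genes were named from the platform annotation, updated by gene identifier through RefSeq's Release 6 table; no build is named for the array, so no position is given.

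Here, adjacent spots were averaged, each array's median was subtracted, and limma 3.58.1 (R 4.3.3; lmFit with an intercept, eBayes, two-sided) was run on probes with values on at least 3 arrays. P-values were Benjamini-Hochberg adjusted over all 1114, with a threshold of 0.05. This replaced the authors' one-class SAM 2.21. The fitting code was tested on simulated data with independent noise and no dye or array shift. Only the size of its estimates was checked there. The number of arrays, 4, limits the precision. Named genes were the 4 enzymes, every listed pathway gene on at least 3 arrays, sparser genes of GABA and of glutamate enzymes, and the 3 probes nearest each enzyme. The enzymes and lists were chosen with earlier results of these data known. Of the listed names, 3 had no current symbol. Alternatives covered the reading, centring, normalization, filters, spots, gene-level averaging and left-out arrays.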

Additional observations from a re-analysis of the deposited data

Results flagged for a closer look

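Of 24 sets of 4 array values looked at for a stray array, 2 were marked. Chance would mark about 1 in 20 independent sets. Each gene enters under both readings, so these sets are not independent and the count cannot be set against that rate. Under the direct reading Gad1 on replicate 1 (-0.73) stood apart from the other 3 arrays, the gap being 0.87 of the whole range. The 90th percentile of the difference between duplicate spots was 0.93 on replicate 1, against 0.44 to 0.47 on the other arrays. Gdh had a mean of 0.34 on the 2 arrays with VGB in Cy5 and -0.38 on the 2 with VGB in Cy3 under the dye reading, with opposite signs on every array of each dye order. That difference between dye orders was not tested on its own beyond the dye term of the model above.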

How the results depend on the processing

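No enzyme passed limma under any alternative run. The lowest adjusted p was 0.082, for the dye term of Gdh, which is its direct mean with dye in the fit, and the others ran from 0.13 to 0.999. Under the direct reading the means of Gabat, Gad1, Gs2 and Gdh were 0.038, 0.035, 0.075 and 0.36. Under the dye reading without centring they were 0.057, 0.0056, 0.24 and 0.26. All of these were opposite in sign to the dye reading with centring. Read directly without centring, each enzyme was above 0 on every array, from 0.31 (Gad1, replicate 1) to 1.59 (Gdh, replicate 2). The column medians subtracted ran from 0.44 to 1.04, so the small direct means of Gabat, Gad1 and Gs2 rest on the centring. That uncentred direct setting was not tested. With the median taken over probes on at least 3 arrays, Gs2 stood at 0.010 and Gdh at 0.027. Gdh was also above 0 with quantile normalization (0.042), at spot 1 alone (0.024) and with block centring (0.033), the last chosen after seeing the data. With 1 array left out, the ranges were -0.34 to -0.14 for Gabat, -0.45 to -0.12 for Gad1, -0.12 to 0.053 for Gs2 (above 0 without replicate 4) and -0.22 to 0.12 for Gdh (0.073 without replicate 3, 0.12 without replicate 4). Under the direct reading the ranges, chosen after seeing the data, were -0.043 to 0.21 for Gabat, -0.080 to 0.29 for Gad1, -0.0072 to 0.14 for Gs2 and 0.29 to 0.44 for Gdh. Gabat was then below 0 without replicate 3 (-0.043) or 4 (-0.030), Gad1 without replicate 2 (-0.036), 3 (-0.032) or 4 (-0.080), and Gs2 without replicate 4 (-0.0072). The count of probes called, 4 by limma (1 higher, 3 lower), was 0 under the direct reading and with values on at least 2 arrays. It was also 0 under the dye reading without centring and with quantile normalization. With dye in the fit the direct reading gave 38 higher and 3 lower. The count was 8 with the median over probes on at least 3 arrays, 27 with a dye term, 2 with values on all 4 arrays, 9 for single spots, 15 at gene level and 1 with block centring. It ranged from 0 to 3 with 1 array left out, and from 0 to 4 under the direct reading. The cause of these shifts was not tested. Each array's ratio already pairs a VGB pool with an NF pool, so the tests over the 4 ratios are paired and no further block was added.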
